A study of Mus musculus with 3 samples.

Results

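A set of 7 fatty acid oxidation genes was followed through single cells of the mouse kidney cortex after sham surgery and after severe bilateral ischemia-reperfusion injury (IRI). The set held Ppara, Ppargc1a, Cd36, Cpt1a, Acadm, Ehhadh and Pdk4. They were chosen by name, not by a measured value, although earlier results of these data were known. They made up 7 of the 22535 genes listed in the count tables. All mice carried WT1CreERT2 and Rosa26-tdT fl/+ and received tamoxifen, so that cells expressing Wt1 at that time, together with their descendants, carried the red fluorescent protein tdTomato (tdT). The Sham library held a mixture of tdT+ and tdT- cells after sham surgery, in which tdT+ cells had been enriched. The IRI24h-TDN library held the same kind of mixture 24 h after IRI, and the IRI24h-TD library held tdT+ cells alone at 24 h. Cells of several kidneys were pooled in each library and there was 1 library per condition. No difference below therefore has a replicate check, and no p-value is given.

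Fatty acids are the main fuel of the proximal tubule, where Ppara, a nuclear receptor that fatty acids activate, and its coactivator Ppargc1a raise transcription of the oxidation enzymes. Cd36 takes up long-chain fatty acids at the cell surface, Cpt1a links them to carnitine for entry into mitochondria, Acadm carries out the first dehydrogenation of medium-chain acyl-CoA there, and Ehhadh is the bifunctional enzyme of peroxisomal beta-oxidation. Pdk4 phosphorylates and thereby inhibits pyruvate dehydrogenase, which spares glucose while fat is burned, and is a well-known target of the PPAR receptors.

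Of 30008 barcodes, 26760 with at least 200 genes and at most 50% mitochondrial unique molecular identifiers (UMIs) were kept. Sham gave 8047 of these cells, IRI24h-TDN gave 9024 and IRI24h-TD gave 9689, with a median of 7746, 9151 and 9529 UMIs per cell. Pairs of libraries shared 82 to 96 kept barcode sequences, and 0 of the shared barcodes had identical profiles. Cells were grouped into 13 classes by marker genes and called X-like; 845 cells stayed unnamed. Podocyte-like cells were the majority (18253), followed by parietal epithelial cell (PEC)-like cells (1418) and proximal tubular epithelial cell (PTEC)-like cells (1327). The sort set the shares of classes, so cell numbers were not compared.

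The PTEC-like class drew 1033 cells from Sham, 162 from IRI24h-TDN and 132 from IRI24h-TD, which fell in clusters 12 (leading genes Kap and Slc7a13), 14 (Havcr1 and Krt20) and 17 (Slc6a19, Slc5a12 and Gatm). Cluster 12 held 485, 64 and 28 of these cells, cluster 14 held 267, 94 and 104, and cluster 17 held 281, 4 and 0. The class bore its name in Sham, where Slc34a1, the phosphate transporter of this segment, stood at 5004 CPM (UMIs of the gene per 1000000 UMIs of the class). In IRI24h-TDN it stood at 581 CPM and in IRI24h-TD at 420 CPM. The injury marker Havcr1 ran the other way, at 5.54, 2738 and 969 CPM. Leaving out subclusters that carried podocyte or monocytic genes kept Acadm, Cd36 and Ehhadh ratios at −1.91, −1.83 and −1.51. Median depth of these cells was 6901, 15147 and 10020 UMIs, and mitochondrial UMIs made up 17.7%, 17.4% and 10.5%. The part of segment, depth and pooled kidneys in the differences below was not tested, and injury and library cannot be told apart.

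On mm10, Ppara lay at chr15:85734983-85802819 on the plus strand, Ppargc1a at chr5:51454250-51567726 on the minus strand, Cd36 at chr5:17781690-17888801 on the minus strand and Cpt1a at chr19:3322334-3385733 on the plus strand. Acadm lay at chr3:153922357-153944632, Ehhadh at chr16:21761287-21787807 and Pdk4 at chr6:5483351-5496309, all on the minus strand. All 7 are protein-coding, and UMIs were summed over the whole gene. The 3 genes that were lowest relative to Sham in injured PTEC-like cells were Cd36, Acadm and Ehhadh, and their promoters are shown for that reason. Each is the 250 bases before the RefSeq start on GRCm38.p6, read 5′ to 3′ along the gene, with capitals for the hexamer AGGTCA (or its reverse complement TGACCT) and for a match, with up to 2 mismatches, to AGGTCANAGGTCA, the direct repeat that PPAR and RXR receptors bind. The windows are chr5:17835897-17836146, chr3:153944644-153944893 and chr16:21787835-21788084, all on the minus strand. The RefSeq start of Cd36 lies inside the longer GENCODE gene.
Cd36: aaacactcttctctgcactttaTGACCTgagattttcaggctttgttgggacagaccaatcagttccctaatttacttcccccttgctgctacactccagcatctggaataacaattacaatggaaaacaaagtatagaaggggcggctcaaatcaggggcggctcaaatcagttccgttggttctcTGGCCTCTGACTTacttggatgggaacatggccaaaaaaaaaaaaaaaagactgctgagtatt
Acadm: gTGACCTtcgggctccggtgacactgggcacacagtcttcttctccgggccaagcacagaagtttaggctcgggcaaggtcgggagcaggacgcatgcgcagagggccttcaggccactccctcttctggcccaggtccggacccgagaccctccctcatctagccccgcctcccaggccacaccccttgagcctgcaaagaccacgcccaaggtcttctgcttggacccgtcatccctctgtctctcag
Ehhadh: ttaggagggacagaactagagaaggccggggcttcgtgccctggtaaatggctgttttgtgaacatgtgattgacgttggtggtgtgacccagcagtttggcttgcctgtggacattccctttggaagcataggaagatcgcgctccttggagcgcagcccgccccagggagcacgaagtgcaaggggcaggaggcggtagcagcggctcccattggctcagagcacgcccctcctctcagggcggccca

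The hexamer, searched on both strands, was in the windows of Cd36, Acadm and Cpt1a, 3 of the 7 genes, and in 4607 of all 32851 windows (14%). Of 82 other pathway genes with a window, 14 held it. The direct repeat was matched in Cd36 alone among the 7, as TGGCCTCTGACTT beginning 63 bases before the start on the opposite strand, with 2 mismatches. It was matched in 1063 of all windows (3.24%) and in 6 of the 82 other pathway genes (Acot12, Fabp1, Echs1, Etfa, Plin2 and Rxra). These are matches of letters, and no match says only that these letters are not in the window.

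The classes differed in which of the genes they carried. Every level below is in CPM with the exact 95% Poisson interval where given, which covers counting error only, and the order of classes rests on the mean of the libraries with at least 50 cells of the class. Ehhadh was highest in PTEC-like cells, at a mean of 184 CPM (72.1 to 356 over the libraries), and no library overlapped with the next class, distal convoluted tubule-like cells at 24.7 CPM. Ppara was also highest in PTEC-like cells (38.2 CPM), followed by distal convoluted tubule-like cells (12.9 CPM), with ranges that touched. Acadm was highest there too (613 CPM), although its range over libraries (314 to 1184 CPM) overlapped with that of distal convoluted tubule-like cells at 327 CPM.

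The coactivator and the carnitine step had another order. Ppargc1a was highest in intercalated-like cells (286 CPM), then in distal convoluted tubule-like (246 CPM), connecting tubule- and principal-like (220 CPM) and ascending limb-like cells (159 CPM). The ranges of these neighbours overlapped, and a gap separated them from PEC-like (59.8 CPM) and PTEC-like cells (56.9 CPM). Cpt1a was highest in distal convoluted tubule-like cells (646 CPM), followed by ascending limb-like cells (510 CPM) and connecting tubule- and principal-like cells (383 CPM). PTEC-like cells came next at 359 CPM. The ranges of neighbours in this order overlapped. In IRI24h-TDN, PTEC-like cells stood above ascending limb-like and connecting tubule- and principal-like cells.

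Cd36 followed another order again and was not restricted to epithelium. Monocytic-like cells led by the mean (878 CPM), followed by PTEC-like (346 CPM) and endothelial-like cells (184 CPM), with a gap to ascending limb-like cells (24.2 CPM). The range of PTEC-like cells overlapped with those of the other leading classes. In Sham, PTEC-like cells stood above monocytic-like cells (754 against 574 CPM), and in IRI24h-TDN below them (210 against 1181 CPM). For Pdk4 the order was PTEC-like (230 CPM), PEC-like (165 CPM), distal convoluted tubule-like (144 CPM), intercalated-like (80.7 CPM) and ascending limb-like cells (67.3 CPM). A gap then led to connecting tubule- and principal-like (26.0 CPM) and podocyte-like cells (16 CPM).

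**Figure D1:**
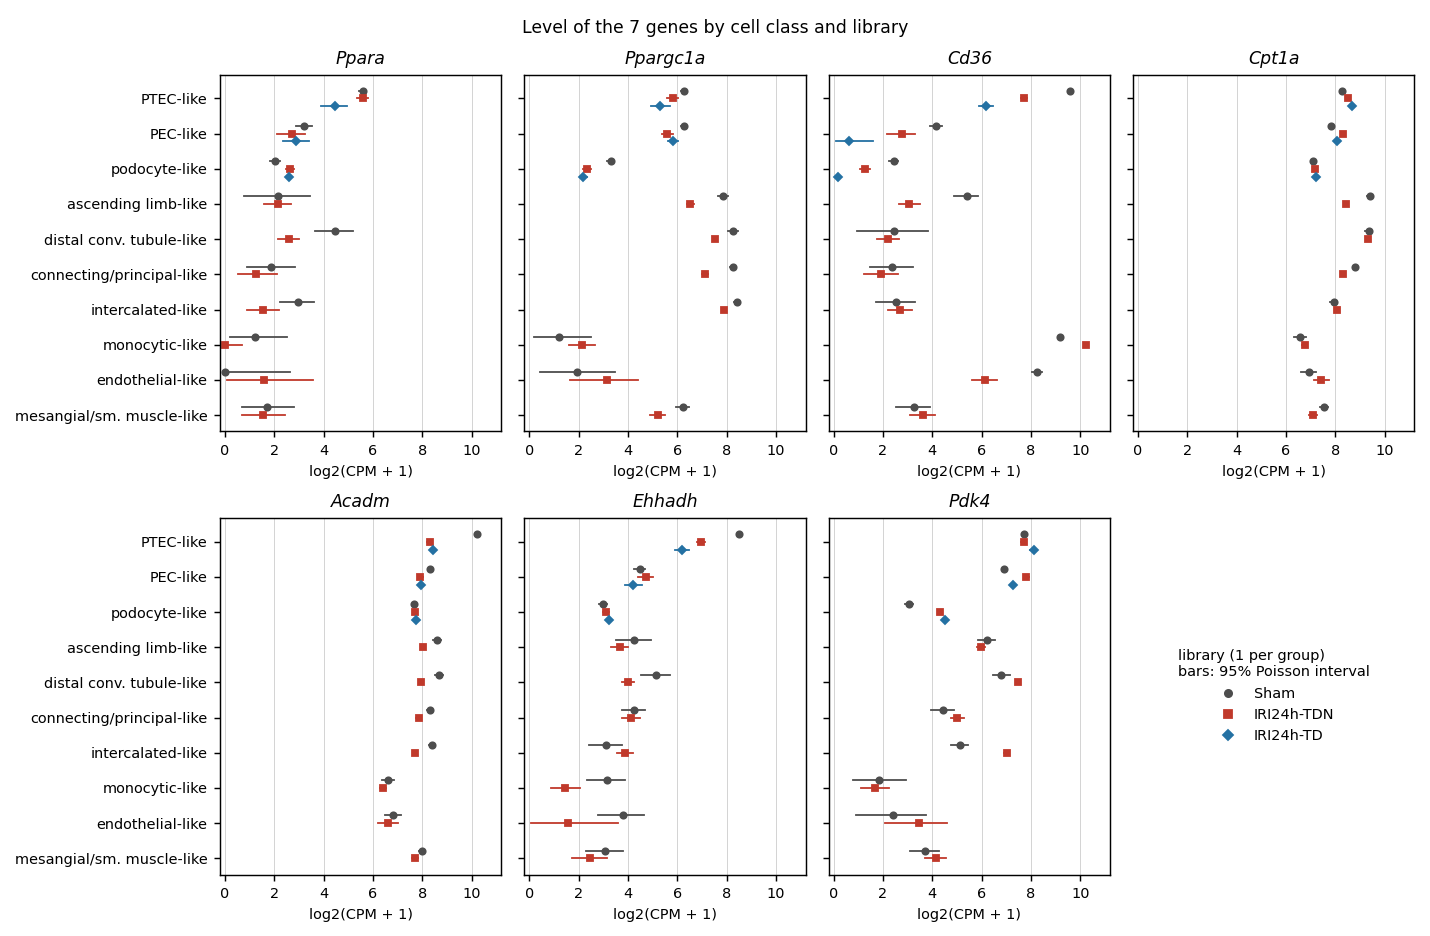
Level of each gene as log2(CPM + 1) in 10 classes of cells, 1 panel a gene. Grey circles are Sham, red squares IRI24h-TDN and blue diamonds IRI24h-TD (drawn for podocyte-, PEC- and PTEC-like cells); bars are exact 95% Poisson intervals of the UMI count. Ehhadh stands highest in PTEC-like cells, Cd36 in monocytic-like and PTEC-like cells, and Ppargc1a in distal classes.

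Libraries also differed in the class that gave a gene's UMIs. PTEC-like cells gave 81.3% of all Cd36 UMIs in Sham and 7.62% in IRI24h-TDN, where monocytic-like cells gave 84.5%. Ehhadh UMIs came from the same class to 84.5% in Sham, to 31.4% in IRI24h-TDN and to 11.5% in IRI24h-TD. Values were therefore compared within classes.

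In PTEC-like cells the receptor Ppara differed little between the mixtures. Its level was 47.1 CPM in Sham (400 UMIs), 46.7 CPM in IRI24h-TDN (139 UMIs) and 20.8 CPM in IRI24h-TD (30 UMIs). The intervals of Sham and IRI24h-TDN overlapped, and IRI24h-TD (14 to 29.7 CPM) lay below both. The log2 ratio of IRI24h-TDN over Sham was −0.01 (95% interval −0.30 to 0.27). Ppargc1a stood at 76.3, 55.5 and 38.8 CPM in the same order. Sham was highest, and its interval (70.5 to 82.4 CPM) did not overlap with that of IRI24h-TDN (47.3 to 64.6 CPM). The log2 ratio was −0.46 (−0.71 to −0.21), short of 2-fold.

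Cd36, the uptake receptor, was lower in both injured libraries. It stood at 754 CPM in Sham (736 to 773), 210 CPM in IRI24h-TDN (194 to 227) and 72.1 CPM in IRI24h-TD (58.9 to 87.4). The 3 intervals did not overlap. IRI24h-TDN was 3.59-fold lower than Sham (log2 ratio −1.84, −1.96 to −1.73), and 6.36% of the genes tested had a lower ratio. A single cell gave 12.5% of the Cd36 UMIs of IRI24h-TDN, and another 24.0% of those of IRI24h-TD.

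Cpt1a, the entry step of mitochondria, did not move with Cd36. It stood at 309 CPM in Sham (297 to 321), 363 CPM in IRI24h-TDN (342 to 385) and 404 CPM in IRI24h-TD. Sham was lowest, and its interval did not overlap with the others. The log2 ratio of IRI24h-TDN over Sham was 0.23 (0.13 to 0.34), beside a median of 0.13 over all genes tested, and it was 0.030 under TMM scaling.

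Acadm, the mitochondrial dehydrogenase, had the lowest ratio of the 7 genes. It stood at 1184 CPM in Sham (1161 to 1207), 314 CPM in IRI24h-TDN (294 to 335) and 341 CPM in IRI24h-TD (312 to 373). Sham lay far above both injured libraries, whose intervals overlapped. IRI24h-TDN was 3.77-fold lower (log2 ratio −1.91, −2.01 to −1.82), and 5.93% of genes had a lower ratio. Under TMM scaling the ratio was −2.12.

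Ehhadh, the peroxisomal enzyme, was lower as well. It stood at 356 CPM in Sham (343 to 369), 124 CPM in IRI24h-TDN (111 to 137) and 72.1 CPM in IRI24h-TD (58.9 to 87.4), without overlap. IRI24h-TDN was 2.88-fold lower (log2 ratio −1.52, −1.68 to −1.37), with 8.97% of genes below it.

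Pdk4, the brake on pyruvate dehydrogenase, was level between the mixtures. It stood at 209 CPM in Sham (199 to 219), 207 CPM in IRI24h-TDN (191 to 224) and 273 CPM in IRI24h-TD (247 to 302). The intervals of Sham and IRI24h-TDN overlapped almost fully and IRI24h-TD lay above them. The log2 ratio of IRI24h-TDN over Sham was −0.01 (−0.15 to 0.12). It depended on how cells were weighted, and was 0.72 as the mean of per-cell CPM.

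In all, 3 of the 7 genes (Cd36, Acadm and Ehhadh) were at least 2-fold lower in PTEC-like cells of IRI24h-TDN and 0 were at least 2-fold higher. Over the 12455 genes tested, 15% were at least 2-fold lower and 18.3% at least 2-fold higher. Between the 2 injured libraries, Ppara and Cd36 were more than 2-fold lower in IRI24h-TD than in IRI24h-TDN (log2 ratios −1.17 and −1.54), where 5.10% of all genes were lower and 11% higher by that much. Against Sham, 4 of the 7 genes were at least 2-fold lower in IRI24h-TD (Cd36 −3.39, Ehhadh −2.30, Acadm −1.79 and Ppara −1.18) and 0 higher, beside 12% of all genes lower and 23.4% higher. Between the injured libraries Ppargc1a (−0.51) and Ehhadh (−0.78) were lower by less, and Acadm (0.12), Cpt1a (0.15) and Pdk4 (0.40) differed by under 2-fold in the other direction.

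The same comparison was made within PTEC-like clusters. In cluster 12, the Kap and Slc7a13 cells, Acadm was 1419 CPM in Sham, 435 CPM after IRI in the mixture and 336 CPM in tdT+ cells. Cd36 was 987, 412 and 190 CPM there, and Ehhadh 444, 207 and 99.7 CPM. Sham was highest for each, and the log2 ratios of IRI24h-TDN over Sham were −1.71, −1.26 and −1.10. The ratios of Cpt1a (0.25), Ppara (0.15), Ppargc1a (−0.19) and Pdk4 (−0.21) in this cluster were all under 2-fold.

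In cluster 14, led by Havcr1 and Krt20 over the pooled libraries, the same 3 genes were lower still. Acadm was 1010, 216 and 344 CPM (log2 ratio of IRI24h-TDN over Sham −2.22), and Ehhadh was 299, 55.7 and 55.5 CPM (−2.43). Cd36 was 610 CPM in Sham and 45.0 CPM in IRI24h-TDN (−3.76), with 1 UMI in all 104 cells of IRI24h-TD (1.11 CPM). Pdk4 went the other way in this cluster, at 66.7, 178 and 344 CPM, with intervals that did not overlap and a log2 ratio of 1.41 (1.07 to 1.77). Pdk4 was thus level over the whole class while it was higher in the injured cells of cluster 14. Leading genes were read from all libraries pooled, and Havcr1 was low in PTEC-like cells of Sham. Sham cells of this cluster are therefore not read as Havcr1-rich, and their likeness to its injured cells was not tested. Cluster 17 held almost only Sham cells, with 506 CPM of Acadm, 58.6 CPM of Cd36 and 94.7 CPM of Ehhadh.

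**Figure D2:**
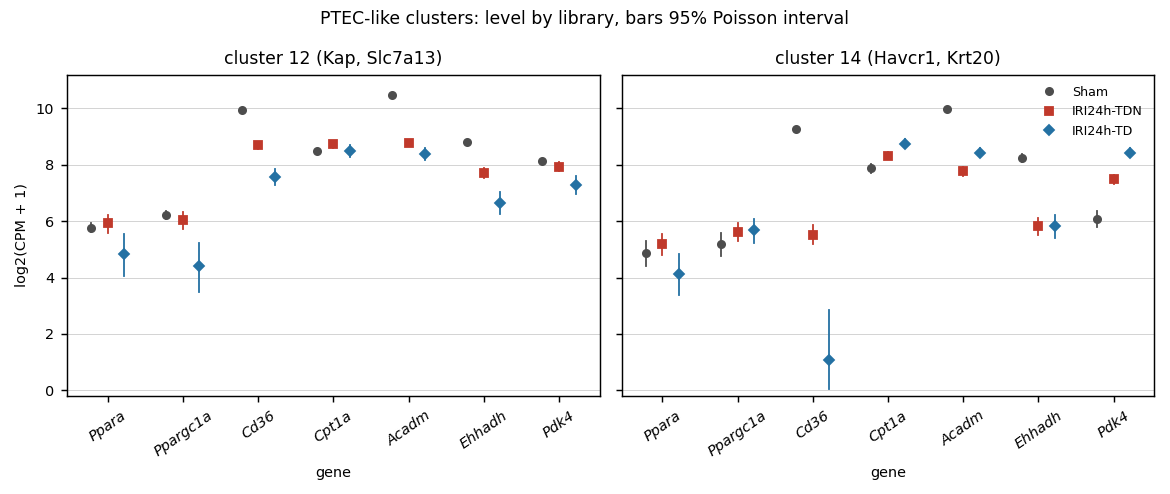
Levels of the 7 genes as log2(CPM + 1) in PTEC-like clusters 12 and 14, with Sham as grey circles, IRI24h-TDN as red squares, IRI24h-TD as blue diamonds and exact 95% Poisson intervals as bars. Acadm, Cd36 and Ehhadh are highest in Sham in both clusters, while Pdk4 in cluster 14 is lowest in Sham (66.7 CPM).

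The genes differed by position along the proximal tubule in Sham. Among PEC-like and PTEC-like cells, subclusters that carried markers of the late straight segment (S3-like, 550 cells of Sham) or of the convoluted segments (S1/S2-like, 385 cells of Sham) were compared within Sham. S3-like cells held more Cd36 (997 against 122 CPM, log2 ratio 3.03), Ehhadh (455 against 104 CPM, 2.13) and Acadm (1454 against 567 CPM, 1.36). Pdk4 followed at 264 against 134 CPM (0.97), Ppara at 52.5 against 35.5 CPM (0.56) and Cpt1a at 342 against 271 CPM (0.34). Ppargc1a alone was lower in S3-like cells, at 70.1 against 114 CPM (−0.71). The size of the Cd36 ratio ranged from 2.14 to 4.15 over other ways of grouping, always higher in S3-like cells.

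Within segments the injury comparison was thinner. S1/S2-like cells of IRI24h-TDN numbered 84, and their Acadm was lower by 0.59 on the log2 scale, while Ehhadh was higher by 0.59 (−0.067 as the mean of per-cell CPM). Of all genes tested in these cells, 10.3% were at least 2-fold higher and 15.8% lower. Cd36 was 256 CPM against 122 CPM (log2 ratio 1.07), but 20.7% of its UMIs came from 1 cell and the direction turned in several alternatives, with −1.88 for cells of at least 500 genes. Only 20 S3-like cells were found in IRI24h-TDN, with log2 ratios of −1.76 for Acadm, −0.54 for Cd36 and −0.57 for Ehhadh, where 12.4% of all genes were at least 2-fold lower and 23.4% higher. Single cells gave 32.4% of the Cd36 UMIs and 27.4% of the Ehhadh UMIs of these 20 cells. As the mean of per-cell CPM, S3-like Cd36 was 1002 in Sham and 491 in IRI24h-TDN, and Ehhadh 433 and 238. The class ratios of Acadm, Cd36 and Ehhadh by summed CPM were further below 0 than those found within either segment. S3-like cells numbered 550 in Sham, and the part of segment make-up was not tested. Injured tubule-like cells, 50 in IRI24h-TDN and 15 in Sham, had 216 CPM of Acadm, 31.3 CPM of Cd36, 35.8 CPM of Ehhadh, 311 CPM of Cpt1a and 247 CPM of Pdk4 in IRI24h-TDN, and 68.0% of them held a Pdk4 UMI. In the 15 Sham cells Acadm was 348 CPM, Cpt1a 232 CPM and Pdk4 223 CPM (25 UMIs, in 40% of cells), and Cd36 and Ehhadh had 2 UMIs each (17.9 CPM). Acadm was thus higher in Sham, while the intervals of Cd36, Ehhadh and Pdk4 overlapped.

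The genes also differed in how evenly cells shared them. Of PTEC-like cells in Sham, 22.7% held a Pdk4 UMI, whereas 71.2% would have held one if each cell had carried the class level at its own depth. The 103 cells with the most Pdk4 UMIs held 86.8% of them. The share with a UMI was 54.9% in IRI24h-TDN (88.0% if even) and 44.7% in IRI24h-TD (71.1% if even). A larger share of cells held Pdk4 in both injured libraries than in Sham. This also held with cells of at least 2000 UMIs thinned to 2000 (14.1%, 25.9% and 31.5% of 942, 162 and 92 cells). Thinned shares here and below leave out shallower cells, which differed in number between libraries. In monocytic-like cells, the class with the lowest mean Pdk4 level in the order above, 1.31% of Sham cells and 1.42% of IRI24h-TDN cells held a UMI. Their median depths, 4446 and 5726 UMIs, were below those of PTEC-like cells, so these shares are not a matched background.

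Over the whole PTEC-like class, Cd36 was spread widely in Sham and narrowly in the injured libraries. It had a UMI in 69.8% of PTEC-like cells in Sham (94.5% if even), 37.0% in IRI24h-TDN (88.2% if even) and 9.09% in IRI24h-TD (44.3% if even). In IRI24h-TDN the 16 cells with most Cd36 held 74.7% of it. Thinned shares were 57.5%, 17.9% and 6.52%. By segment, S1/S2-like cells with a Cd36 UMI made up 30.9% in Sham and 38.1% in IRI24h-TDN (thinned 19.5% and 16.7%). S3-like cells with a UMI made up 96.4% of 550 cells in Sham and 80.0% of 20 cells in IRI24h-TDN. The part of segment make-up was not tested. In podocyte-like cells, at median depths of 8297, 9368 and 9772 UMIs, 3.35%, 1.2% and 0.129% held a Cd36 UMI.

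Acadm stayed in most cells at a lower level. It had a UMI in 87.6%, 83.3% and 71.2% of PTEC-like cells, or in 74.4%, 38.9% and 35.9% at 2000 UMIs. Ehhadh lay between these patterns, with 64.6%, 56.2% and 30.3% of cells, or 39.7%, 17.3% and 6.52% when thinned. Cpt1a was in 69.7%, 84.6% and 68.9% of cells and in 41.2%, 44.4% and 59.8% when thinned. Thinned shares of Ppara (7.64%, 5.56% and 7.61%) and Ppargc1a (13.4%, 8.64% and 12%) were close to the level of 1 UMI and give no order.

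**Figure D3:**
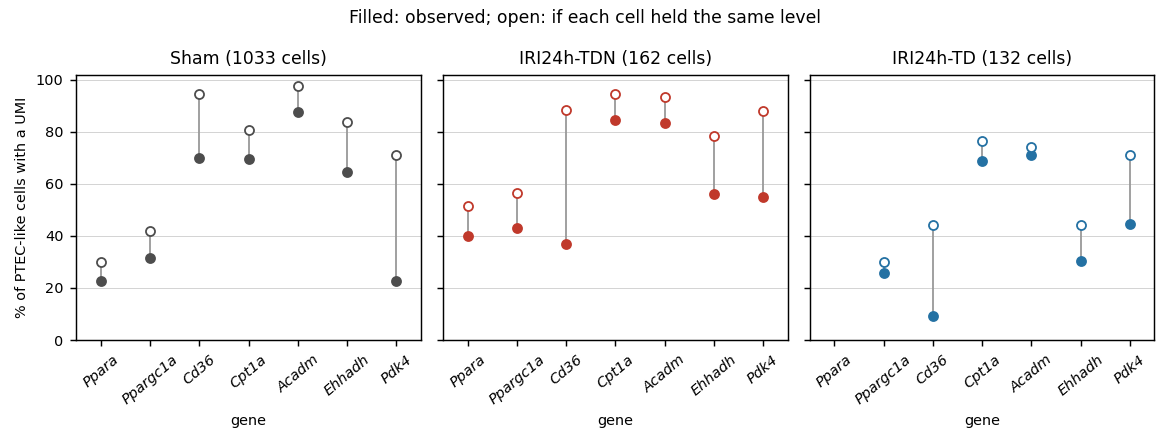
Percent of PTEC-like cells with at least 1 UMI of each gene, 1 panel a library. Filled points are observed and open points are the percent if every cell held the class level at its own depth (Ppara is left out of IRI24h-TD, with 30 UMIs). Pdk4 in Sham (22.7% against 71.2%) and Cd36 in IRI24h-TDN (37.0% against 88.2%) lie far below the even value.

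Pdk4-rich cells of cluster 12 were compared with cells of the same cluster that held no Pdk4 UMI, a split chosen after the values were seen and given as description. In Sham, 134 cells with at least 2 Pdk4 UMIs stood beside 308 with 0 (median depth 12231 and 9003 UMIs). Angptl4, a secreted inhibitor of lipoprotein lipase, was at 337 and 56.8 CPM (log2 ratio 2.57), Cyp4a14 at 73.9 and 26.7 CPM (1.47), Acot2 at 78.6 and 34.3 CPM (1.2) and Cyp4a10 at 1152 and 612 CPM (0.91). Acadm (−0.28), Cd36 (−0.26), Ehhadh (−0.04) and Cpt1a (0.20) were within 2-fold. The collecting duct genes Aqp2 (103 and 6.67 CPM) and Hsd11b2 (98.7 and 6.03 CPM) were higher as well, with 49.2% and 50.8% of their UMIs from 1 cell, and their part was not tested. Of 84 pathway genes, 4 were at least 2-fold higher and 2 lower, beside 5.64% and 4.13% of all genes tested. In IRI24h-TDN, 32 such cells stood beside 25 (median depth 24745 and 16771 UMIs), with Angptl4 at 109 and 30.5 CPM (1.84), Acot2 at a log2 ratio of 1.19 and Ehhadh at 261 and 93.9 CPM (1.48). There 10 of 75 pathway genes were higher and 1 lower, beside 12.4% and 4.06% of all genes. In both libraries the pathway genes that were higher were thus near the share of all genes.

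Other pathway genes were read from 9 lists by role, 94 genes with the 7 included. In PTEC-like cells, 87 of the 94 had at least 10 UMIs over Sham and IRI24h-TDN, and 26 were at least 2-fold lower and 7 at least 2-fold higher in IRI24h-TDN, beside 15% and 18.3% of all genes. Their median log2 ratio was −0.41, beside 0.13 over all genes tested. Leaving the 7 out, 23 of 80 were lower and 7 higher, with a median of −0.40. Without correction between libraries the class kept 5 cells of IRI24h-TDN, and 12 pathway genes were lower and 30 higher with a median of 0.30, where 5.09% of all genes were lower and 63.1% higher with a median of 1.74.

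The lists are read against 15% of all genes lower and 18.3% higher. In the peroxisomal list 6 of 13 measured genes were at least 2-fold lower, 0 higher, and the median was −0.99. Acox3, an acyl-CoA oxidase, stood at 52.5 CPM in IRI24h-TDN against 189 CPM in Sham (−1.85). Among regulators, 3 of 9 were lower and 0 higher, with Ppard, the sister receptor of Ppara, at 9.08 against 77.3 CPM (−3.09) and Lpin1 at 22.2 against 73.3 CPM (−1.72). Of the mitochondrial list 3 of 17 were lower and 0 higher (median −0.23), and of the carnitine list 1 of 6 was lower and 0 higher (median −0.30), shares near that of all genes lower. The lower carnitine gene was Crot, which hands shortened acyl chains to carnitine, at 104 against 388 CPM (−1.90).

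Uptake, binding and activation genes moved in both directions, with 6 of 14 lower and 2 higher. Acsm3, a medium-chain acyl-CoA synthetase, had 2 UMIs in IRI24h-TDN and 1713 in Sham (0.672 against 202 CPM, log2 ratio −8.23, −11.28 to −6.38). Its relative Acsm2 stood at 883 against 3944 CPM (−2.16), and Slc27a2, a very long-chain acyl-CoA synthetase and transporter, at 603 against 2282 CPM (−1.92). The long-chain synthetases Acsl4, at 179 against 27.6 CPM (2.7), and Acsl5, at 61.2 against 15.9 CPM (1.94), were higher instead. Acsl1 and Acsl3, the other long-chain synthetases of the list, were not past 2-fold higher. Acsm and Cyp4a genes have close copies between which reads could be split, so their single values are uncertain.

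Of the other PPAR targets, 2 of 9 were lower and 3 higher, with a median of −0.73. Plin2, the coat protein of lipid droplets, was highest in relative terms at 461 against 42.4 CPM (3.44). Acot2, a mitochondrial thioesterase, stood at 206 against 57.8 CPM (1.83) and Ucp2 at 419 against 181 CPM (1.21), while the omega-hydroxylase Cyp4a10 stood at 145 against 663 CPM (−2.20). Of the ketone genes 2 of 4 were lower and 1 higher, with Bdh1, the hydroxybutyrate dehydrogenase, at 18.5 against 124 CPM (−2.74). Of the pyruvate dehydrogenase switch, 2 of 8 were lower and 1 higher, the phosphatase Pdp1 on 19 and 10 UMIs (2.44), and of synthesis and storage 1 of 7 was lower and 0 higher.

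**Figure D4:**
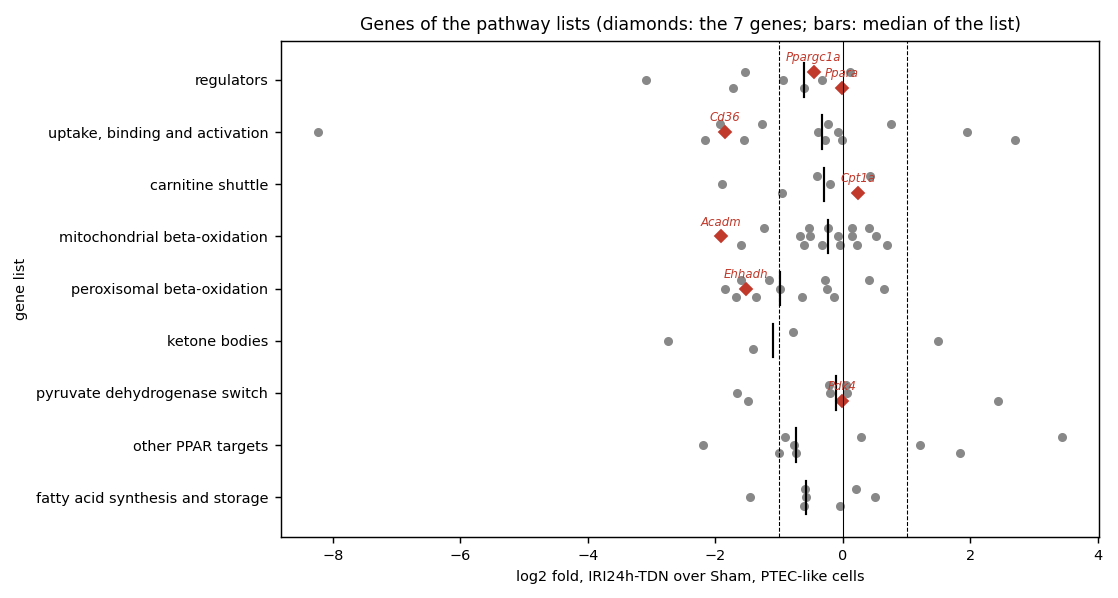
Log2 ratio of CPM, IRI24h-TDN over Sham, for each pathway gene in PTEC-like cells, by list. Diamonds are the 7 genes, short bars the list medians and dashed lines 2-fold either way; the peroxisomal list has its median at −0.99 and Plin2 is the highest point (3.44).

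In podocyte-like cells, which the sort enriched, Pdk4 had the largest ratio above 0. It stood at 7.36 CPM in Sham, 19.0 CPM in IRI24h-TDN and 21.5 CPM in IRI24h-TD, and 5.24%, 13.2% and 13.6% of cells held a UMI. Both injured libraries were above Sham, with a log2 ratio of 1.37 (1.18 to 1.57) for IRI24h-TDN and 1.55 for IRI24h-TD. Of all genes tested, 5.42% were at least 2-fold higher in IRI24h-TDN and 13.4% lower, and against IRI24h-TD these shares were 5.12% and 15.7%. By cluster the log2 ratio was 1.54, 1.49, 1.22, 1.84 and 1.05 in clusters 0 to 4 and 1.01 in cluster 9, led by Igfbp2 and Aldh1a1, while cluster 28 had 2 cells in IRI24h-TDN. Between the injured libraries it was 0.18, where 1.76% of all genes were at least 2-fold higher in IRI24h-TD and 4.81% lower, and thinned shares of cells were 1.41%, 3.64% and 3.78%.

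The enzymes of podocyte-like cells differed little. Acadm stood at 198, 209 and 210 CPM (log2 ratio of IRI24h-TDN over Sham 0.07) and Cpt1a at 136, 145 and 146 CPM (0.09). Ehhadh stood at 6.95, 7.66 and 8.46 CPM, with an interval of the ratio that held 0. The regulators moved apart, Ppargc1a at 8.85, 4.09 and 3.58 CPM (−1.12) and Ppara at 3.08, 5.22 and 5.04 CPM (0.76). Cd36, at 4.44, 1.43 and 0.140 CPM (−1.64), was in Sham at 0.589% of its PTEC-like level, beside 0.563% for 5 proximal tubule markers in the same cells. These shares were 0.680% and 0.0917% in IRI24h-TDN and 0.194% and 0.0809% in IRI24h-TD. The Sham level is therefore not read as expression, and the ratio is given as a value alone.

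PEC-like cells, which line Bowman's capsule, carried more of each gene than podocyte-like cells by summed CPM. For Ppara the intervals overlapped in both injured libraries (5.50 and 5.22 CPM in IRI24h-TDN, 6.43 and 5.04 CPM in IRI24h-TD). Those of Cd36 overlapped in IRI24h-TD (0.559 and 0.140 CPM). Their 5 proximal tubule markers stood at 8.63% of the PTEC-like level in Sham and 18.7% in IRI24h-TDN. Pdk4 was 120 CPM in Sham, 223 CPM in IRI24h-TDN and 153 CPM in IRI24h-TD. The mixture after injury was highest, with a log2 ratio over Sham of 0.89, which reached 1.08 in an alternative, and of −0.54 for IRI24h-TD over IRI24h-TDN. Both values depended on which cells were included. The subclusters that kept the PEC-like name when these cells were split again (487, 172 and 256 cells) had 27.8 CPM of Pdk4 in Sham, 117 CPM in the injured mixture and 120 CPM in tdT+ cells. There the intervals of the injured libraries overlapped and lay above Sham, with a log2 ratio of 2.08 (1.73 to 2.44) for IRI24h-TDN over Sham, where 10.1% of all genes were at least 2-fold higher and 14.6% lower. The ratio of IRI24h-TD over IRI24h-TDN was 0.03 (−0.22 to 0.29), beside 2.92% of genes higher and 2.84% lower. Cpt1a was 224, 317 and 267 CPM (0.50), Acadm 315, 239 and 245 CPM (−0.40) and Ppargc1a 76.3, 47.2 and 55.9 CPM (−0.69). Cd36 was 16.7, 5.79 and 0.559 CPM (−1.53), the only one of the 7 genes past 2-fold over the whole class, where 13.2% of all genes were lower by that much and 9.19% higher. In IRI24h-TD, Cd36 rested on 2 UMIs and was the only one past 2-fold against either other library. Of all genes, 5.27% were at least 2-fold lower and 3.17% higher against IRI24h-TDN, and 13.1% lower and 7.09% higher against Sham. Cd36 in Sham stood at 2.21% of its PTEC-like level, below the 8.63% of the proximal markers, and is not read as expression of these cells. Ehhadh in Sham, at 5.99% of its PTEC-like level, was also below the markers and is not read so either.

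Cd36 of myeloid cells went the other way from that of the tubule. In monocytic-like cells it stood at 574 CPM in Sham (306 cells) and 1181 CPM in IRI24h-TDN (913 cells), with a UMI in 59.8% and 69.6% of cells. The injured library was 2.06-fold higher (log2 ratio 1.04, 0.94 to 1.14), and under TMM scaling the ratio was 0.93, short of 2-fold. Of all genes tested in these cells, 13.9% were at least 2-fold higher and 10.1% lower. By cluster, Cd36 was 599 and 1535 CPM (1.36) in cluster 5, led by C1qc, Ccl4 and C1qa, and 169 and 378 CPM (1.16) in cluster 21, led by Chil3, Fn1 and Lyz2, where 20 UMIs made up the Sham value. Cluster 24, led by H2-Ab1, Cxcl9 and Xcr1, had 639 and 290 CPM (−1.14).

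Endothelial-like cells, which also use Cd36 for uptake, had 299 CPM in Sham (211 UMIs) and 69.3 CPM in IRI24h-TDN (35 UMIs). The injured library was lower (log2 ratio −2.11), where 12% of all genes were at least 2-fold lower and 8.16% higher. In ascending limb-like cells Cd36 was 40.9 and 7.41 CPM on 36 and 37 UMIs (−2.46), where 13.9% were lower and 9.13% higher.

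In the distal tubule, the energy-demanding segments had less Ppargc1a after injury. It stood at 227 CPM in Sham and 91.2 CPM in IRI24h-TDN in ascending limb-like cells (log2 ratio −1.32), and at 301 and 139 CPM in connecting tubule- and principal-like cells (−1.11), where 9.34% of genes were at least 2-fold lower and 10.9% higher. In distal convoluted tubule-like cells it stood at 308 and 185 CPM (−0.74) and in intercalated-like cells at 336 and 236 CPM (−0.51). Sham was higher in all 4 classes, past 2-fold in the first 2. Mesangial- and smooth muscle-like cells were also past 2-fold lower, with 73.3 and 35.7 CPM (−1.04), where 8.33% of genes were lower by that much and 5.83% higher.

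Cpt1a in ascending limb-like cells was 672 CPM in Sham and 347 CPM in IRI24h-TDN (log2 ratio −0.95), whereas in distal convoluted tubule-like cells it was 651 and 640 CPM (−0.02). The interval of the latter held 0. Acadm was lower in each of the 4 distal classes by less than 2-fold, from 383 to 256 CPM in ascending limb-like, 409 to 244 CPM in distal convoluted tubule-like, 312 to 231 CPM in connecting tubule- and principal-like and 331 to 207 CPM in intercalated-like cells. Ehhadh was 34.3 and 15.1 CPM in distal convoluted tubule-like cells (−1.19) and Ppara 20.9 and 4.98 CPM (−2.07, 14 and 36 UMIs), where 14.8% of genes were at least 2-fold lower and 9.79% higher.

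The largest Pdk4 ratio of the 10 classes was in intercalated-like cells, the acid-base cells of the collecting system. It stood at 33.6 CPM in Sham and 128 CPM in IRI24h-TDN, with a log2 ratio of 1.93 (1.57 to 2.30). Of all genes tested there, 10.5% were at least 2-fold higher and 7.80% lower. Both clusters of the class showed it, from 41.0 to 142 CPM in cluster 18 (1.79) and from 29.6 to 96.9 CPM in cluster 19 (1.71). Distal convoluted tubule-like cells had 110 and 178 CPM (0.69), connecting tubule- and principal-like cells 20.5 and 31.4 CPM (0.61) and ascending limb-like cells 72.8 and 61.9 CPM (−0.23), all under 2-fold. In ascending limb-like cells of Sham, 1 cell gave 46.9% of the 64 Pdk4 UMIs. There 18.4% of cells held a UMI, against 29.2% in IRI24h-TDN, so the sign of that ratio is not read. In connecting tubule- and principal-like cells of IRI24h-TDN, 1 cell gave 33.9% of 112 UMIs.

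**Figure D5:**
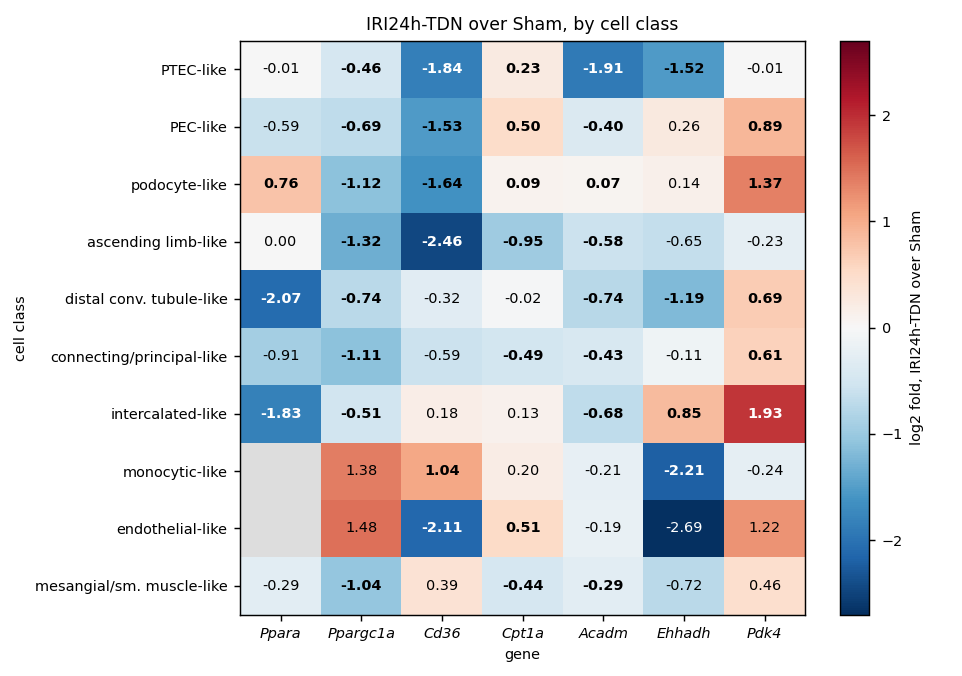
Log2 ratio of CPM, IRI24h-TDN over Sham, for the 7 genes (columns) in 10 classes (rows); bold values have an exact 95% interval that leaves out 0, and grey cells have a library with 0 UMIs. Acadm is negative in 9 of 10 classes but past 2-fold only in PTEC-like cells (−1.91), and Cd36 is negative in PTEC-like (−1.84) and positive in monocytic-like cells (1.04).

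Over the 10 classes, Acadm was lower in IRI24h-TDN in 9 and higher in 1 (podocyte-like), with 1 class past 2-fold. Cd36 was past 2-fold lower in 5 classes and higher in 1, but in podocyte-like and PEC-like cells its Sham level, as a share of that in PTEC-like cells, was near or below that of the proximal markers. Past 2-fold, Ehhadh was lower in 4 and higher in 0, and Cpt1a past 2-fold in 0 classes. For Ehhadh, endothelial-like (9 UMIs in Sham and 1 in IRI24h-TDN) and monocytic-like cells (12 and 10 UMIs) were among the 4 and rest on few counts. Pdk4 was past 2-fold higher in 2 of the 9 classes with at least 10 UMIs and lower in 0. Ppargc1a was lower in 4 of 9 and higher in 1, monocytic-like cells, where 50% of the UMIs of IRI24h-TDN came from 1 cell, and Ppara was lower in 2 of 7. For Ppara these were distal convoluted tubule-like cells (14 UMIs in Sham and 36 in IRI24h-TDN) and intercalated-like cells (14 and 9 UMIs). Both rest on few counts.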

How the data were processed

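Kidney cortex cells of 3 libraries were measured by single-cell RNA-seq on the BD Rhapsody platform. The deposited files give the authors' UMI counts per gene and cell, not normalized. The submitters' processing notes name CASAVA 1.8, UMI-tools, Seurat and the build mm10, without their order or role. Gene positions were taken from GENCODE M21 and promoters from RefSeq on GRCm38.p6, searched for motifs 250 bases upstream.

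Cells with at least 200 genes and at most 50% mitochondrial UMIs were kept. Total UMIs per library were 69980443 (Sham), 92355554 (IRI24h-TDN) and 93470709 (IRI24h-TD). Counts were scaled to 10000 per cell and log transformed; 2000 variable genes, without the 94 pathway genes, gave 30 principal components, which were corrected between libraries by Harmony (theta 2, rewritten in numpy) and clustered with Leiden (15 neighbours, resolution 1) into 29 clusters. A class name needed at least 3 markers, each in at least 20% of cells. A second round at resolution 0.9 split the 2745 cells named PEC-like or PTEC-like into 16 subclusters. Class names were rebuilt from markers and can differ from the study's. Doublet scores were computed and doublets were kept. Thinning to 2000 UMIs per cell left out 1117 shallower cells.

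UMIs were summed per class and library and given as CPM with exact Poisson intervals. Ratios have exact conditional 95% intervals. A gene counted as past 2-fold with at least 10 UMIs over both libraries. With 1 library per condition no test was run. The sums were tested on simulated data. The genes, lists and markers were chosen with earlier results of these data known. The genes named are the 7, up to 10 pathway genes per direction with the largest ratio, at least 20 UMIs and past 2-fold, and for each of the 7 the 3 genes most alike with at least 500 UMIs (a few genes that these rules name are not reported here); other names come from the alternatives or were chosen after values were seen.

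Software was Python 3.11.15, numpy 2.4.6, scipy 1.17.1, pandas 2.3.3, scikit-learn 1.9.0, igraph 0.11.9, leidenalg 0.10.2, matplotlib 3.10.9 and R 4.3.3 with edgeR 4.0.16, which served for TMM factors alone. Alternatives changed the gene minimum, mitochondrial limit, doublets, correction, resolution, variable genes, scaling and averaging.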

Additional observations from a re-analysis of the deposited data

Results flagged for a closer look

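The ratio of Cd36 between IRI24h-TDN and Sham ran in opposite directions in different classes. On the log2 scale it was −2.46 in ascending limb-like, −2.11 in endothelial-like, −1.84 in PTEC-like, −1.64 in podocyte-like and −1.53 in PEC-like cells, and 1.04 in monocytic-like cells. Within the monocytic-like class it was 1.36 in cluster 5 and 1.16 in cluster 21, and −1.14 in cluster 24. The podocyte-like and PEC-like values rest on Cd36 that in Sham stood at 0.589% and 2.21% of the PTEC-like level, beside 0.563% and 8.63% for 5 proximal markers, and are not read as expression of those cells. With 1 library per condition, these differences between classes and clusters were not tested.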

How the results depend on the processing

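No paired analysis was possible because each condition has 1 library. Of 36 log2 ratios, 30 kept their sign in every alternative. The values below are log2 ratios of IRI24h-TDN over Sham in PTEC-like cells unless said otherwise.

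Without correction between libraries, where the PTEC-like class kept 5 cells of IRI24h-TDN and the median of all genes was 1.74, Ppara was 0.95, Acadm −2.49, Ehhadh −0.95, Cd36 −2.28 and Pdk4 1.52, the PEC-like Pdk4 ratio of IRI24h-TD over IRI24h-TDN was −0.24, the S3-like over S1/S2-like ratio of Acadm in Sham was 1.47, its PTEC-like level in Sham was 1106 CPM, and 12 pathway genes were at least 2-fold lower and 30 higher, with a median of 0.30. With a mitochondrial limit of 25%, Acadm was −1.71, Ehhadh −1.21 and Cd36 −1.32, PEC-like Pdk4 −0.16, the segment ratios of Acadm and Cd36 were 1.46 and 4.15, Acadm was 1277 CPM and Cpt1a in ascending limb-like cells of Sham 601 CPM. With at least 500 genes per cell, Acadm was −1.72, Ehhadh −1.23, Cd36 −1.30 and Pdk4 0.17, PEC-like Pdk4 −0.19, the segment ratio of Acadm 1.46 and its level 1149 CPM. With the pathway genes left in the clustering, Acadm was −1.74, Ehhadh −1.21, Cd36 −1.29 and Pdk4 0.17, PEC-like Pdk4 −0.076 and the segment ratios 1.27 (Acadm) and 2.14 (Cd36).

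Under TMM scaling, which shifted PTEC-like ratios by −0.20, Cpt1a was 0.030, Acadm −2.12, Ehhadh −1.73, Cd36 −2.05 and Pdk4 −0.22, monocytic-like Cd36 0.93, the segment ratios 1.58 (Acadm) and 3.26 (Cd36) and Acadm 1467 CPM. As the mean of per-cell CPM, Ppargc1a was −0.15, Acadm −1.80 and Pdk4 0.72, the segment ratios 1.21 (Acadm) and 2.37 (Cd36) and Acadm 1025 CPM. At resolution 0.6, monocytic-like Cd36 was 1.14 and the segment ratios 1.53 (Acadm) and 2.86 (Cd36). At resolution 1.5, PEC-like Pdk4 was −0.29 and the Cd36 segment ratio 2.76. With 4000 variable genes these were −0.79 and 2.14, with Acadm at 1210 CPM, and without the top 6% of doublet scores −0.35 and 2.21, with Acadm at 1218 CPM. Scaled without mitochondrial UMIs, Acadm was 1439 CPM, Cpt1a in ascending limb-like cells 907 CPM and Ppargc1a in intercalated-like cells of Sham 431 CPM.

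The S1/S2-like Cd36 ratio turned negative with at least 500 genes per cell (−1.88), at resolution 0.6 (−0.17) and 1.5 (−0.15) and as the mean of per-cell CPM (−0.15). The cause of these shifts was not tested. Leaving out subclusters that carried podocyte or monocytic genes was an alternative chosen after seeing the data. Depth limits Ppara most, with 30 UMIs in PTEC-like cells of IRI24h-TD, and intervals cover counting error only.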

Other observations

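Over 25 groups, each a class in a library, the pattern of each gene was compared with 12018 others by Pearson's r of log2 levels. The groups share libraries and depth, so r is a description. Ppara was most like Etfb (0.89), Pgpep1 (0.86) and Hmgcs1 (0.85). Ppargc1a was most like Atp5a1, Cox6c and Rragd (0.94 each), and Cpt1a like Atp5j2 (0.93) and Srek1ip1 (0.91). Acadm was most like Ech1 (0.93), Pank1 (0.93) and Hmgcs1 (0.92), and Ehhadh like Nudt8 (0.89), Gm11992 (0.89) and Slc25a15 (0.88). Cd36 was most like Aoah (0.84), Mapk14 (0.83) and March1 (0.83), and Pdk4 like Selenbp1 (0.91), Malsu1 (0.90) and Rab3ip (0.90). Among the 7 genes, Ppargc1a and Cpt1a (0.86) and Ppara and Acadm (0.81) were alike, and Cd36 had r of −0.29 to 0.20 with the others.

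The 1547 barcodes of Sham with fewer than 200 genes held 30.1 CPM of Acadm, 8.11 CPM of Cpt1a, 7.09 CPM of Cd36, 5.40 CPM of Ehhadh and 2.03 CPM of Pdk4.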
